A study of Homo sapiens with 6 samples.

Results

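The primary (azurophil) granule genes followed here encode proteins that immature granulocytes and monocyte precursors pack into their first granules, or make at the same stage: the serine proteases PRTN3, ELANE and CTSG, the protease relatives AZU1 and CFD, the ribonucleases RNASE2 and RNASE3, lysozyme (LYZ), myeloperoxidase (MPO) and the membrane protein MS4A3. They were taken by name: 10 gene symbols, each found once among the 58735 genes of the deposited expression table. RNA sequencing had been done on U937, an established human line of immature monocyte-like leukaemia cells, in 3 libraries of wild-type cells and 3 libraries of cells labelled shENO1, taken to mean a short hairpin targeting ENO1, which encodes the glycolysis enzyme alpha-enolase. Both groups share the line, labelled as acute myeloid leukaemia (AML), and the library kit. The labels name no vector control and no hairpin sequence, number of hairpins or time after delivery, so an effect of ENO1 loss and an effect of carrying a hairpin construct cannot be told apart. The study asked what knocking down ENO1 does in this line.

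Primary granules form at the promyelocyte stage, before the lactoferrin-containing granules of later neutrophil maturation, and their genes are switched on together by myeloid transcription factors of the C/EBP, PU.1, MYB and RUNX families. The serine proteases are made as inactive precursors, cut to the active form by the dipeptidase cathepsin C, and held on the proteoglycan serglycin inside the granule. Proteinase 3, elastase and myeloperoxidase are classic markers of the granulocyte and monocyte precursor stage, and monocytes keep lower amounts of several of these products.

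ENO1 itself measured 526, 545 and 561 FPKM in wild type and 91.5, 82.7 and 111 FPKM in shENO1 (fragments counted per gene, divided by gene length and sequencing depth), a log2 fold change of -2.51 (SE 0.14, limma adjusted p = 0.00129). Recovered reads in genes ranged from 14216739 to 17499636 a library. Genes averaging at least 1 FPKM were compared between the groups with limma on log2(FPKM + 1), and a gene passed at a Benjamini-Hochberg adjusted p under 0.05 over all 12809 tested genes. Wild-type replicate 3 and shENO1 replicate 3 lay at opposite ends of principal component 2 (-32.2 and 34.7, against -13.2 to 9.15 for the other libraries). On component 1 (47.1% of the variance), which separated the groups, each lay nearer the other group than its fellows did. Wild-type replicate 3 was at -9.79, against -34.2 and -31.8, and shENO1 replicate 3 at 15.9, against 28.3 and 31.5. Whether replicates were separate cultures is not given by the labels, and the p-values therefore reflect the spread among these 6 libraries, which may be technical. In bulk RNA, a change in the number of cells that express a gene and a change in its RNA per cell cannot be told apart.

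Myeloid markers were present: CD33, an early myeloid surface receptor, averaged 13.2 ± 1.21 and 11.8 ± 0.196 FPKM in the wild-type and shENO1 groups (SD, n = 3, as for every ± below), and the myeloid transcription factor gene SPI1 60.9 ± 6.88 and 62.6 ± 6.71 FPKM. CD68, of the same marker list, was under 1 FPKM in every library and was not tested. Of all tested genes 7.86% passed as higher in shENO1 and 6.46% as lower. Of 8 tested myeloid markers 2 rose, CSF1R from 0.941 ± 0.0813 to 2.28 ± 0.455 FPKM (adjusted p = 0.0245; not called without wild-type replicate 1 or 2 or shENO1 replicate 1 or 3, adjusted p = 0.0561 to 0.0953) and FCGR1A from 2.11 ± 0.344 to 3.72 ± 0.494 FPKM (adjusted p = 0.0322; called only with all libraries or without shENO1 replicate 2 among the fits leaving out 1 library, otherwise adjusted p = 0.0532 to 0.11), both receptors of monocytes, and the part of this in the granule gene results was not tested. The median log2 fold change of the 8 was -0.04, and FCER1G and TYROBP, genes of signalling adaptors of myeloid receptors, were at 100.2 ± 17.3 and 72.9 ± 17.4 FPKM (adjusted p = 0.175; it passed without both replicates numbered 3) and at 55.9 ± 6.15 and 44.7 ± 6.88 FPKM (adjusted p = 0.18). The 5 T cell markers were all under 1 FPKM, with CD3D and CD3E listed at 0, and so were the 5 erythroid markers. Of the 7 markers of mature neutrophils, FCGR3B and ALPL were listed at 0, and the summed level of all 7 was 14.98 to 17.2 FPKM in wild-type and 13.7 to 18.7 FPKM in shENO1 libraries. Among them CXCR2, a chemokine receptor gene of neutrophils, had 12, 16 and 12 reads in wild type and 82, 75 and 96 reads in shENO1, without overlap. Its means were 0.277 ± 0.0361 and 1.64 ± 0.118 FPKM (5.92-fold). It was not tested, since its mean over all libraries was under 1 FPKM, and its part in the granule gene results was not tested. CSF3R, the most abundant of the 7, was lower in every shENO1 library, at 11.8 ± 0.308 and 10.4 ± 0.713 FPKM (adjusted p = 0.23). LTF was lower too, at 16, 11 and 4 reads against 0, 1 and 2, while CAMP overlapped between the groups. Some B cell markers were on, with a summed level of 9.68 to 11.5 and 7.61 to 11.3 FPKM; among them PAX5, a B-lineage transcription factor gene, rose from 1.505 ± 0.244 to 3.52 ± 0.189 FPKM (adjusted p = 0.00951; 0.0512 without wild-type replicate 1). CD79A, a B cell receptor subunit gene, was lower in every shENO1 library than in any wild-type library, at 6.94 ± 1.18 and 4.003 ± 1.39 FPKM (adjusted p = 0.0816). With 1 library left out, CD79A passed only without shENO1 replicate 3 (adjusted p = 0.041). The part of these genes in the granule gene results was not tested.

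In shENO1 cells 4 of the 9 tested granule genes rose and 0 fell: PRTN3 2.62-fold, RNASE3 2.002-fold, MS4A3 1.91-fold and RNASE2 1.603-fold in mean FPKM. Over all tested genes 7.86% rose and 6.46% fell. ELANE and LYZ were higher in every shENO1 library than in any wild-type library, 1.58-fold and 1.65-fold, without passing the test, so that 6 of 9 showed no overlap upward and 0 downward, against 19.6% and 17.9% of all tested genes. AZU1, CTSG and CFD overlapped between the groups. MPO, at under 1 FPKM in every library, was not tested. The median log2 fold change of the 9 genes was 0.68, beside -0.02 over all tested genes. The granule genes were chosen with earlier results of these data known, so their contrast with all tested genes is not a test. Together the 10 genes took 0.435%, 0.464% and 0.374% of the reads in genes in wild type and 0.564%, 0.488% and 0.714% in shENO1.

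**Figure D1:**
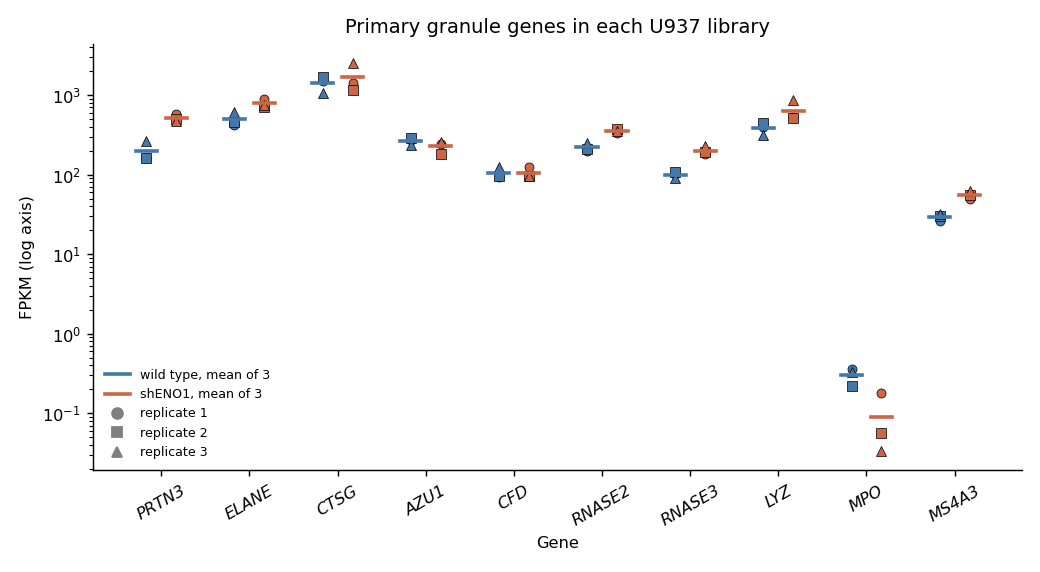
FPKM (log axis) of the 10 primary granule genes in each of the 3 wild-type and 3 shENO1 libraries; symbols mark the replicate number and bars the group mean. PRTN3, ELANE, RNASE2, RNASE3, LYZ and MS4A3 are higher in shENO1 with no overlap between the groups, while MPO lies lower in shENO1, also with no overlap, at 0.0336 to 0.357 FPKM, far below the rest.

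By level per gene length, CTSG was the most abundant of the 10 in both groups and ranked 10 and 11 among 19951 protein-coding genes. In wild-type cells the order of mean FPKM was CTSG, ELANE, LYZ, AZU1, RNASE2, PRTN3, CFD, RNASE3, MS4A3 and MPO. Ranges overlapped between the neighbours ELANE and LYZ, AZU1 and RNASE2, RNASE2 and PRTN3, and CFD and RNASE3. Within each library ELANE was still above LYZ (421, 458 and 616 against 399.9, 441 and 311 FPKM). For the other pairs the order differed between libraries, so those pairs were not separated. In shENO1 cells PRTN3 stood in place 4, ahead of RNASE2 and AZU1 with no overlap between PRTN3 and RNASE2 or between RNASE2 and AZU1, and its rank among protein-coding genes went from 152 to 37. That of ELANE went from 47 to 20 and that of MS4A3 from 1459 to 651.

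AZU1, PRTN3, ELANE and CFD stand in a row on chromosome 19, all on the plus strand, within 38.5 kb (GRCh38), at 825097 to 832018, 840960 to 848175, 851014 to 856247 and 859643 to 863630. The gaps between them are 8.94, 2.84 and 3.4 kb. The first 3 encode closely related products of the granule, of which PRTN3 passed the test and AZU1 and ELANE did not.

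PRTN3 (ENSG00000196415), encoding proteinase 3, which cleaves extracellular matrix and is the main autoantigen of granulomatous vasculitis, was at 161, 163 and 264 FPKM in wild type and 570.2, 494 and 474 FPKM in shENO1. Every shENO1 library was above every wild-type library, and the third wild-type library stood above its fellows. The means were 196 ± 58.8 and 513 ± 50.7 FPKM, and the log2 fold change was 1.42 (SE 0.22, adjusted p = 0.0123), on 2783 to 10168 recovered reads per library. The gene did not pass without wild-type replicate 1, wild-type replicate 2 or shENO1 replicate 1 (adjusted p = 0.0551 to 0.0585), with log2 fold changes of 1.30 to 1.65 over the 6 fits that left out 1 library each.

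ELANE (ENSG00000197561), encoding neutrophil elastase, mutated in cyclic and severe congenital neutropenia, was at 421, 458 and 616 FPKM in wild type and 902, 705 and 761 FPKM in shENO1. The groups did not overlap, and the third wild-type library again stood above its fellows. The log2 fold change was 0.67 (SE 0.19, adjusted p = 0.0639) between means of 498 ± 104 and 789 ± 101 FPKM. It passed in 5 of 18 alternative settings, among them without wild-type replicate 3 (0.84, adjusted p = 0.0344) and with limma-voom on recovered reads (0.71, adjusted p = 0.0165). It did not pass when any of the other libraries was left out (adjusted p = 0.0854 to 0.207).

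AZU1 (ENSG00000172232), encoding azurocidin, a protease relative that has lost its catalytic activity and acts as an antibacterial and chemotactic protein, was at 269, 290.2 and 239 FPKM in wild type and 239, 181 and 259 FPKM in shENO1. The groups overlapped, and the lowest value was that of shENO1 replicate 2. The means were 266 ± 25.9 and 226 ± 40.4 FPKM (log2 fold change -0.24, SE 0.17, adjusted p = 0.372). After quantile normalisation the value was 0.065 (adjusted p = 0.747), so no direction was fixed for AZU1.

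CFD (ENSG00000197766), encoding complement factor D (adipsin), the serine protease that cleaves factor B in the alternative complement pathway, was at 93.4, 97.1 and 126 FPKM in wild type and 124, 95.02 and 95.8 FPKM in shENO1. The groups had almost the same range, each with a single library apart from its other two. The log2 fold change was -0.01 (SE 0.17, adjusted p = 0.986), and its sign differed between settings (-0.13 to 0.19 over all of them).

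CTSG (ENSG00000100448, chromosome 14, 24573522 to 24576260, minus strand), encoding cathepsin G, a chymotrypsin-like protease, was at 1521, 1706 and 1057 FPKM in wild type and 1419.7, 1164 and 2503 FPKM in shENO1. The spread lay within the groups rather than between them: shENO1 replicate 3 was the highest library and wild-type replicate 3 the lowest. The log2 fold change was 0.20 (SE 0.34, adjusted p = 0.732). Without shENO1 replicate 3 it was -0.12, and without both replicates numbered 3 it was -0.33 (adjusted p = 0.142).

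**Figure D2:**
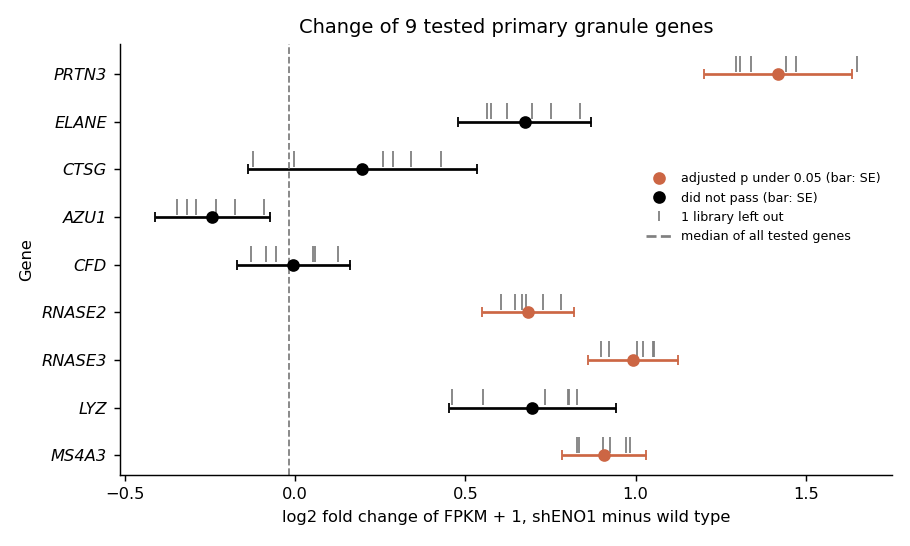
Log2 fold change of FPKM + 1 (shENO1 minus wild type) of the 9 tested granule genes, with the SE as a bar; grey ticks give the value with 1 library left out and the dashed line is the median of all 12809 tested genes (-0.02). PRTN3 lies at 1.42, AZU1, CFD and CTSG at -0.24 to 0.20, and the other 5 genes between 0.67 and 0.99.

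Promoter sequence from RefSeq (GRCh38.p14, the 250 bases before the transcription start) was matched for 7 of the 10 genes, not for ELANE, LYZ or MPO. The AZU1 window, at 827587 to 827836, lies inside that gene's span of 825097 to 832018, and bases before 825097 were not searched. The windows of PRTN3 and AZU1 are shown because PRTN3 rose and its neighbour AZU1 overlapped between the groups; the test of that difference is given with the ratios. Letters in capitals mark matches on either strand to the motifs searched: TTGCNNAA for C/EBP, GAGGAA for PU.1, TGTGGT for RUNX, CAACNG for MYB and TATAAA for a TATA box.
PRTN3 (chr19:840749-840998, plus strand): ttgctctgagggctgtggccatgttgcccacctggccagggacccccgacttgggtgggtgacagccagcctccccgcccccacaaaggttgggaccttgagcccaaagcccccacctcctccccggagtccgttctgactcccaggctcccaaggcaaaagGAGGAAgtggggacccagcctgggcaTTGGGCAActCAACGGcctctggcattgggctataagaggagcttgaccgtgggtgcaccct
AZU1 (chr19:827587-827836, plus strand): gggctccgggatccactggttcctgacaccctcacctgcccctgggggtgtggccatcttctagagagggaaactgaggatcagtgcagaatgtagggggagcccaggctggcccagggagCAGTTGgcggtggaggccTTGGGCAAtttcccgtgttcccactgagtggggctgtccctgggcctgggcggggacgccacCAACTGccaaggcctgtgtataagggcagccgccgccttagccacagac

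Both windows held the same C/EBP match, on the minus strand at -62 to -55 in PRTN3 and at -111 to -104 in AZU1, counting from the start, and each held a MYB match closer to the start, at -52 to -47 and at -49 to -44. PRTN3 alone of this pair had a PU.1 match (-88 to -83), and AZU1 had a further MYB match (-129 to -124). A C/EBP match on either strand was found in 5 of the 7 windows, beside 9.13% of 27305 windows of the same length; MYB matches in 4, beside 27.2%; PU.1 matches in 2, beside 23.4%; and RUNX and TATAAA matches in 0, beside 10.9% and 11.1%. The C/EBP match was thus present in AZU1, which did not pass, as well as in PRTN3, RNASE2, RNASE3 and MS4A3, which rose, and a match of letters does not show that a factor binds there. The RNASE2 and RNASE3 windows are 96.5% identical where they align, so their C/EBP and MYB matches are not independent of each other. CTSG held PU.1 matches only (-46 to -41 and -16 to -11), and CFD held no match.

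RNASE3 and RNASE2 encode the eosinophil cationic protein and the eosinophil-derived neurotoxin, basic ribonucleases of the RNase A family that are stored in eosinophil granules and, in smaller amounts, made by neutrophils and monocytes. They lie 63.1 kb apart on chromosome 14, both on the plus strand, at 20891399 to 20892348 and 20955452 to 20956436, and both rose.

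RNASE3 (ENSG00000169397) was at 101, 108 and 89.8 FPKM in wild type and 182, 189.96 and 226 FPKM in shENO1. The groups were clearly separated, and shENO1 replicate 3 was the highest. Means of 99.5 ± 9.01 and 199 ± 23.6 FPKM gave a log2 fold change of 0.99 (SE 0.13, adjusted p = 0.00888), which missed the threshold without wild-type replicate 1 (adjusted p = 0.0506) and passed without each of the other 5 libraries. RNASE2 (ENSG00000169385) was at 196, 213 and 249.8 FPKM in wild type and 331, 370.1 and 355 FPKM in shENO1. The groups did not overlap, and the wild-type library nearest to shENO1 was replicate 3. Its log2 fold change was 0.68 (SE 0.14, adjusted p = 0.0236) between means of 219 ± 27.7 and 352 ± 19.9 FPKM. RNASE2 did not pass without wild-type replicates 1 or 2 or shENO1 replicates 1 or 2 (adjusted p = 0.0644 to 0.106).

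These genes are recent duplicates, and their promoter windows, shown for that reason, aligned over 199 bases, gaps left out, with 192 identical (96.5%).
RNASE2 (chr14:20955237-20955486, plus strand): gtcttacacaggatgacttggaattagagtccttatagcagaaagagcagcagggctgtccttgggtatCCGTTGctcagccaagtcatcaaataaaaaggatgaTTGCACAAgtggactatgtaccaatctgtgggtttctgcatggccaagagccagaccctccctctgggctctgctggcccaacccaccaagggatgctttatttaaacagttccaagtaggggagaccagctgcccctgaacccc
RNASE3 (chr14:20891135-20891384, plus strand): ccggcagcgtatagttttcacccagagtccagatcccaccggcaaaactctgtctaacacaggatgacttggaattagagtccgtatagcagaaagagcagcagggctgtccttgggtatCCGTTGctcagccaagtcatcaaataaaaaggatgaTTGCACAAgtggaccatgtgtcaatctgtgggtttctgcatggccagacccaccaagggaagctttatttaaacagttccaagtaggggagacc

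The C/EBP match (-145 to -138 in RNASE2, -94 to -87 in RNASE3) and the MYB match on the minus strand (-181 to -176 and -130 to -125) lay inside the aligned stretch of both. In the transcripts, 2.97% of the 50-base windows of RNASE2 occurred in RNASE3 and 3.13% of those of RNASE3 in RNASE2 (GENCODE release 29), so reads from those stretches could have been counted for either gene; how the authors treated such reads is not given in the sources used here. AL355922.1, an unnamed RNA gene between them that shares 2.24% of the windows of RNASE3, was at 58.4 ± 6.49 and 67.9 ± 22.3 FPKM (adjusted p = 0.648). Other tested members of the RNase A list did not pass: ANG, encoding angiogenin, was at 2.32 ± 0.703 and 1.16 ± 0.261 FPKM (adjusted p = 0.0902).

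MS4A3 (ENSG00000149516, chromosome 11, 60056587 to 60071128, plus strand), encoding a membrane protein with 4 membrane-spanning domains that marks granulocyte and monocyte precursors and restrains the cell cycle, was at 25.9, 29.8 and 31.9 FPKM in wild type and 49.8, 55.8 and 61.5 FPKM in shENO1. The lowest shENO1 library was above the highest wild-type library by more than the range within the wild-type group. Means of 29.2 ± 3.05 and 55.7 ± 5.86 FPKM gave a log2 fold change of 0.91 (SE 0.12, adjusted p = 0.00916), which missed the threshold without wild-type replicate 1 (0.83, adjusted p = 0.0505). Its promoter window is shown because it held the most distant C/EBP match of the 7 (-233 to -226) beside a nearer one (-68 to -61), and no other motif searched.
MS4A3 (chr11:60056415-60056664, plus strand): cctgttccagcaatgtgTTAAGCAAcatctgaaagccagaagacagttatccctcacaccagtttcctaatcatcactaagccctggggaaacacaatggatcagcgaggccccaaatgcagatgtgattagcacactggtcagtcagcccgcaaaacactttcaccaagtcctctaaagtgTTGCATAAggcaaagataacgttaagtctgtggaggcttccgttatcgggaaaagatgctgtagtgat

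Of the other MS4A genes, 2 of 4 tested rose and 0 fell, beside 7.86% and 6.46% of all tested genes. MS4A7, a monocyte and macrophage member, rose from 13.2 ± 0.828 to 32.98 ± 3.89 FPKM (log2 fold change 1.25, adjusted p = 0.00445), and MS4A4A, also of macrophages, from 2.63 ± 0.124 to 5.25 ± 1.22 FPKM (adjusted p = 0.0257), a call lost without wild-type replicate 1, 2 or 3 or shENO1 replicate 1 (adjusted p = 0.0536 to 0.0913). MS4A2, the mast cell and basophil member 17.1 kb from MS4A3, was at 1.32 ± 0.1497 and 1.09 ± 0.108 FPKM (adjusted p = 0.506). MS4A1, the B cell antigen CD20, was listed at 0 in all 6 libraries.

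LYZ (ENSG00000090382, chromosome 12, 69348341 to 69354234, plus strand), encoding lysozyme, which cuts bacterial cell walls and is made by monocytes as well as granulocytes, was at 399.9, 441 and 311 FPKM in wild type and 533, 513 and 855 FPKM in shENO1. All 3 shENO1 libraries were above the wild-type ones, with replicate 3 far above the others. The log2 fold change was 0.70 (SE 0.25, adjusted p = 0.107). It passed in 3 of 18 alternative settings, and in 0 of the 6 fits that left out 1 library. The settings were libraries scaled on nuclear genes alone (0.81, adjusted p = 0.0323), limma-voom (0.73, adjusted p = 0.0355) and quantile normalisation (0.89, adjusted p = 0.0127). Without both replicates numbered 3 the log2 fold change was 0.32 (adjusted p = 0.066). Of the 50-base windows of the LYZ transcripts, 35.8% also occurred in transcripts of other genes, so its level rests on the authors' treatment of shared reads more than that of any other of the 10 genes.

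MPO (ENSG00000005381, chromosome 17, 58269856 to 58280935, minus strand), encoding the haem enzyme that makes hypochlorous acid in phagosomes, was close to silent in these cells. It was measured at 0.357, 0.218 and 0.328 FPKM in wild-type and at 0.182, 0.056 and 0.0336 FPKM in shENO1 libraries, which is 19, 12 and 16 against 10, 3 and 2 recovered reads. The groups did not overlap, and all 3 shENO1 libraries were lower. The sums were 47 reads (exact 95% Poisson interval 34.5 to 62.5) and 15 reads (8.4 to 24.7), intervals that cover counting error only. With no filter on FPKM, its log2 fold change was -0.26 (adjusted p = 0.171), a scale on which the added 1 FPKM hides most of a change at such levels. Unlike ELANE, LYZ and the 4 genes that rose, MPO was thus lower in the shENO1 libraries.

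Ratios between genes within a library depend less on its scaling than single levels do, so 9 ratios of FPKM + 1 were compared between the groups. Exact two-sided permutation tests were used, which cannot give a p below 0.1 with 3 against 3 libraries. MPO lay below the added 1 FPKM, so its ratio to PRTN3 mostly follows PRTN3 and keeps the scaling of the library. The log2 ratio of PRTN3 to ELANE, its neighbour, was -1.38, -1.48 and -1.22 in wild-type and -0.66, -0.51 and -0.68 in shENO1 libraries, a difference of 0.74 with no overlap. That of PRTN3 to AZU1 differed by 1.66 and that of ELANE to AZU1 by 0.92, again with no overlap. The log2 ratio of CFD to ELANE averaged -2.22 ± 0.0624 in wild type and -2.90 ± 0.0648 in shENO1, lower by -0.68 with no overlap, although CFD itself overlapped between the groups. For these 4 ratios and for MPO to PRTN3, the exact p was 0.1, the smallest possible (adjusted over the 9 ratios, 0.18), so none passed. For CTSG, LYZ and MS4A3 to PRTN3 and for RNASE3 to RNASE2 the groups overlapped (exact p = 0.2, adjusted 0.2), which does not show that those genes moved alike.

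**Figure D3:**
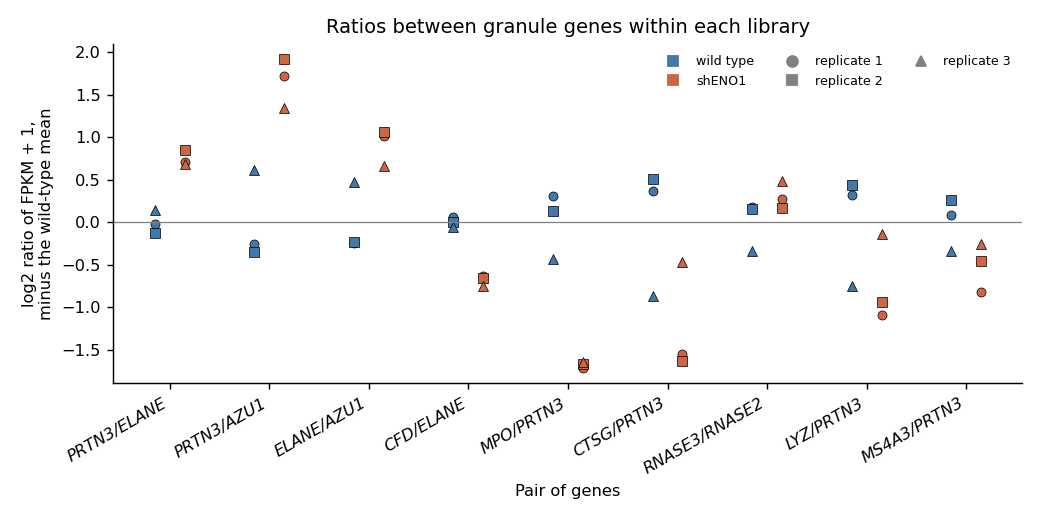
Log2 ratio of FPKM + 1 between 2 granule genes in each library, minus the wild-type mean of that ratio; colours give the group and symbols the replicate number. The first 5 ratios do not overlap between the groups, and in the ratios of CTSG, LYZ and MS4A3 to PRTN3 both libraries numbered 3 lie toward the other group.

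The libraries numbered 3 split the genes in a way the groups did not. On the log2(FPKM + 1) scale, wild-type replicate 3 differed from the mean of wild-type replicates 1 and 2 by 0.70 for PRTN3, 0.49 for ELANE, 0.40 for CFD, 0.29 for RNASE2 and 0.19 for MS4A3, and by -0.61 for CTSG, -0.43 for LYZ, -0.23 for AZU1 and -0.21 for RNASE3. The shENO1 replicate 3 differed from its fellows by 0.96 for CTSG, 0.71 for LYZ, 0.31 for AZU1, 0.28 for RNASE3 and 0.22 for MS4A3, and by -0.16 for PRTN3 and -0.18 for CFD. CTSG, LYZ, AZU1 and RNASE3 were thus low in the former library and high in the latter, while PRTN3, ELANE (-0.07 in the latter) and CFD had the opposite signs; RNASE2 differed there by 0.02. The medians over all tested genes were 0.003 and 0.0186. Transcript GC content was 66.4% for PRTN3, 66.8% for ELANE, 65.4% for CFD and 63.4% for AZU1, 57.2% for CTSG, 47.6% for RNASE3, 46.2% for RNASE2, 41.5% for LYZ and 40.8% for MS4A3. The part of GC content in these differences was not tested.

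Around the chromosome 19 block, 8 other genes within 100 kb of a granule gene were tested, of which 0 rose and 1 fell. The shares over all tested genes were 7.86% and 6.46%. PTBP1, a splicing regulator gene upstream of AZU1, was lower in every shENO1 library than in any wild-type library, at 96.5 ± 1.41 and 79.6 ± 4.85 FPKM, without passing (adjusted p = 0.102). MED16, a Mediator subunit gene 3.999 kb beyond CFD on the minus strand, was at 11.2 ± 4.01 and 17.05 ± 3.72 FPKM (adjusted p = 0.16). With 1 library left out, MED16 passed only without wild-type replicate 3 (adjusted p = 0.0392). AC005391.1, an unnamed locus 92.85 kb from CFD, fell from 5.15 ± 1.09 to 1.61 ± 0.729 FPKM (adjusted p = 0.0177), a call lost without wild-type replicate 1 or 2 (adjusted p = 0.0717 to 0.075). Around all 10 granule genes, 17 other genes were tested, 0 rose and 2 fell; the other one that fell was METTL17, 33.33 kb from RNASE2, from 21.99 ± 1.56 to 16.1 ± 0.183 FPKM (adjusted p = 0.026), not called without wild-type replicate 1 or 2 or shENO1 replicate 1 or 2 (adjusted p = 0.055 to 0.124). The single gene overlapping a granule gene in position was AC020656.1, antisense to LYZ, and it was listed at 0.

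**Figure D4:**
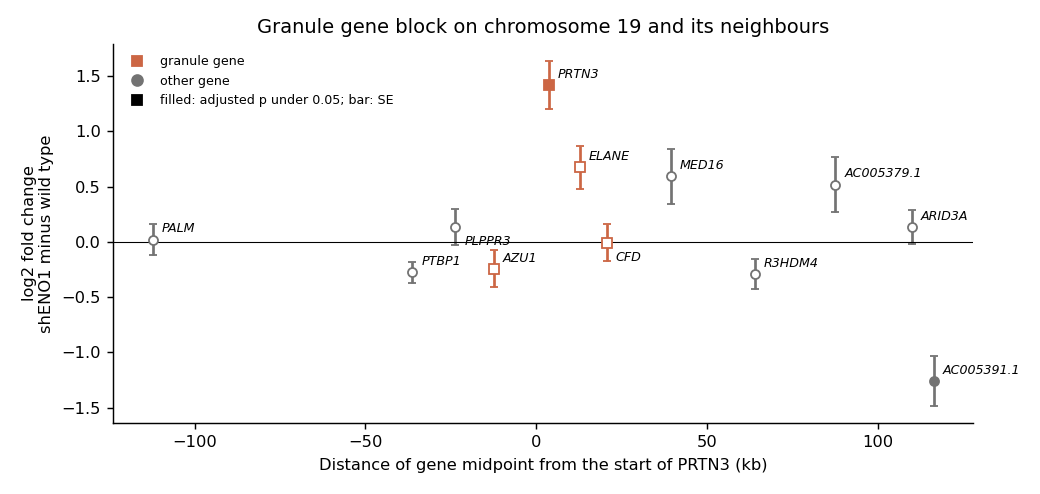
Log2 fold change (shENO1 minus wild type, bars SE) of tested genes on chromosome 19 against the distance of the gene's midpoint from the start of PRTN3 in kb; squares are granule genes and filled symbols passed. PRTN3 at 1.42 stands between AZU1 at -0.24 and ELANE at 0.67, and AC005391.1 at -1.26 is the gene that fell.

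Other cargo of the same and later granules was counted in the same way. For this and the lists that follow, the shares over all tested genes are 7.86% risen and 6.46% fallen. Of 14 further primary granule and lysosomal genes, 8 were tested, 1 rose and 0 fell, with a median log2 fold change of -0.04. ARSB, encoding the lysosomal arylsulfatase B, rose from 4.73 ± 0.665 to 7.46 ± 0.257 FPKM (adjusted p = 0.0201), a call lost without wild-type replicate 1 or 2 or shENO1 replicate 1 or 2 (adjusted p = 0.0511 to 0.0892). The tetraspanin gene CD63, whose protein sits in the granule membrane, was at 103 ± 36.2 and 94.04 ± 53.6 FPKM (adjusted p = 0.787). The alpha-defensin genes DEFA1, DEFA1B, DEFA3 and DEFA4 were listed at 0 in all libraries, which for near-identical copies may come from how shared reads were counted; BPI, a bactericidal granule protein gene, was at 0.487 ± 0.124 and 0.281 ± 0.0869 FPKM. Of 17 genes of secondary and tertiary granules, 6 were tested and 0 passed (median -0.003): CHI3L1, a chitinase-like protein gene, was at 72.3 ± 9.78 and 103 ± 13.5 FPKM (adjusted p = 0.0656), and the gelatinase gene MMP9 at 18.2 ± 1.63 and 15.3 ± 1.95 FPKM (adjusted p = 0.221). Lactoferrin (LTF) was at 0.161 ± 0.09096 and 0.0145 ± 0.01399 FPKM.

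In the machinery that packs and activates the granule proteases, 1 of 10 tested genes rose and 0 fell. SRGN, encoding serglycin, the proteoglycan that binds the proteases, rose from 845 ± 29.3 to 1333 ± 196 FPKM (log2 fold change 0.65, adjusted p = 0.047), a call lost when any of the 6 libraries was left out (adjusted p = 0.0557 to 0.161). CTSC, encoding the activating dipeptidase, was at 16.8 ± 0.801 and 18.9 ± 1.86 FPKM (adjusted p = 0.337). Of 12 inhibitor genes, 8 were tested, 2 rose and 0 fell. SERPINB1, the intracellular inhibitor of elastase, cathepsin G and proteinase 3, rose from 51.3 ± 5.39 to 72.7 ± 6.28 FPKM (adjusted p = 0.0403), passing without wild-type replicate 3 but not without any of the other 5 libraries (adjusted p = 0.0711 to 0.156). SERPINB8, a further intracellular serpin, rose from 4.66 ± 0.173 to 7.88 ± 0.233 FPKM (adjusted p = 0.00748). RNH1, the cytosolic ribonuclease inhibitor gene, was at 32.6 ± 1.701 and 42.5 ± 4.52 FPKM (adjusted p = 0.0695). With 1 library left out, RNH1 passed only without shENO1 replicate 2 (adjusted p = 0.0458).

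In the list of myeloperoxidase folding and haem synthesis, 1 of 10 tested genes rose and 1 fell. ALAS1, which starts haem synthesis, fell from 115 ± 5.802 to 80.5 ± 7.14 FPKM (adjusted p = 0.0294), and FECH, which inserts the iron, rose from 10.6 ± 0.324 to 14.3 ± 0.829 FPKM (adjusted p = 0.0263). ALAS1 was not called without wild-type replicate 1 or 2 or shENO1 replicate 1 or 2 (adjusted p = 0.0725 to 0.132), nor FECH without any wild-type replicate or shENO1 replicate 1 (adjusted p = 0.0517 to 0.122). CALR, encoding the chaperone calreticulin that binds the MPO precursor, was at 724 ± 100.2 and 555 ± 114 FPKM (adjusted p = 0.226). Without both replicates numbered 3, CALR passed as lower (adjusted p = 0.013).

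Among transcription factor genes known to control primary granule genes, 2 of 10 tested rose and 0 fell, with a median of 0.35. The shares over all tested genes were 7.86% and 6.46%. MYB, which drives the promyelocyte stage, rose from 39.6 ± 3.14 to 66.4 ± 3.08 FPKM (log2 fold change 0.73, adjusted p = 0.00907; 0.0558 and 0.0564 without wild-type replicates 1 and 2). IRF8, which favours the monocyte over the granulocyte fate, rose from 25.1 ± 1.07 to 45.6 ± 3.25 FPKM (0.83, adjusted p = 0.00619). CEBPA, the main C/EBP gene of granulocyte and monocyte precursors, was higher in each shENO1 library than in any wild-type library, at 68.3 ± 11.3 and 97.9 ± 15.5 FPKM (adjusted p = 0.0845), and so was CEBPE, of later granulocyte maturation, at 3.92 ± 0.756 and 6.61 ± 1.52 FPKM (adjusted p = 0.0698). Of the fits leaving out 1 library, CEBPA passed only without wild-type replicate 3 (adjusted p = 0.0491) and CEBPE only without shENO1 replicate 2 (adjusted p = 0.036). GFI1, a repressor of monocyte genes, was also higher in each shENO1 library, at 47.05 ± 1.41 and 55.6 ± 2.37 FPKM (adjusted p = 0.121). RUNX1 overlapped between the groups, at 8.69 ± 1.78 and 12.2 ± 3.35 FPKM (adjusted p = 0.24). CEBPB overlapped as well, at 86.3 ± 27.2 and 77.7 ± 19.9 FPKM (log2 fold change -0.14, adjusted p = 0.766), and so did SPI1 (0.04, adjusted p = 0.868).

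In the granule genes of other blood cells, none of the tested members rose. Of 11 eosinophil, basophil and mast cell granule genes 3 were tested and 1 fell, and EPX and PRG2, the eosinophil peroxidase and major basic protein genes, averaged 0.101 ± 0.0558 and 0.0743 ± 0.0722 FPKM in wild-type cells, while RNASE2 and RNASE3, of the same granule in eosinophils, were among the abundant genes. TPSAB1, a mast cell tryptase gene, was at 426 ± 9.21 and 255 ± 70.6 FPKM, lower in every shENO1 library (log2 fold change -0.78, adjusted p = 0.0549; 0.0269 without shENO1 replicate 3), and its near-identical relative TPSB2 fell from 5.43 ± 0.847 to 2.88 ± 0.459 FPKM (adjusted p = 0.0218; 0.0634 to 0.0755 without wild-type replicate 1, wild-type replicate 2 or shENO1 replicate 1), with reads of the pair uncertain. Of 8 cytotoxic granule genes 2 were tested and 0 passed: NKG7 was at 274 ± 20.3 and 261 ± 55.6 FPKM (adjusted p = 0.769), and GZMB, encoding granzyme B, 54.7 kb from CTSG, was at 3.09 ± 0.315 and 2.23 ± 0.578 FPKM (adjusted p = 0.172). In the alternative complement pathway 0 of 4 tested genes passed; C3, the substrate of the convertase that factor D completes, was at 12.7 ± 1.36 and 10.1 ± 0.858 FPKM (adjusted p = 0.119). Of 10 peroxidase and lysozyme relatives, LYG1, the single tested gene, did not pass (adjusted p = 0.144).

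**Figure D5:**
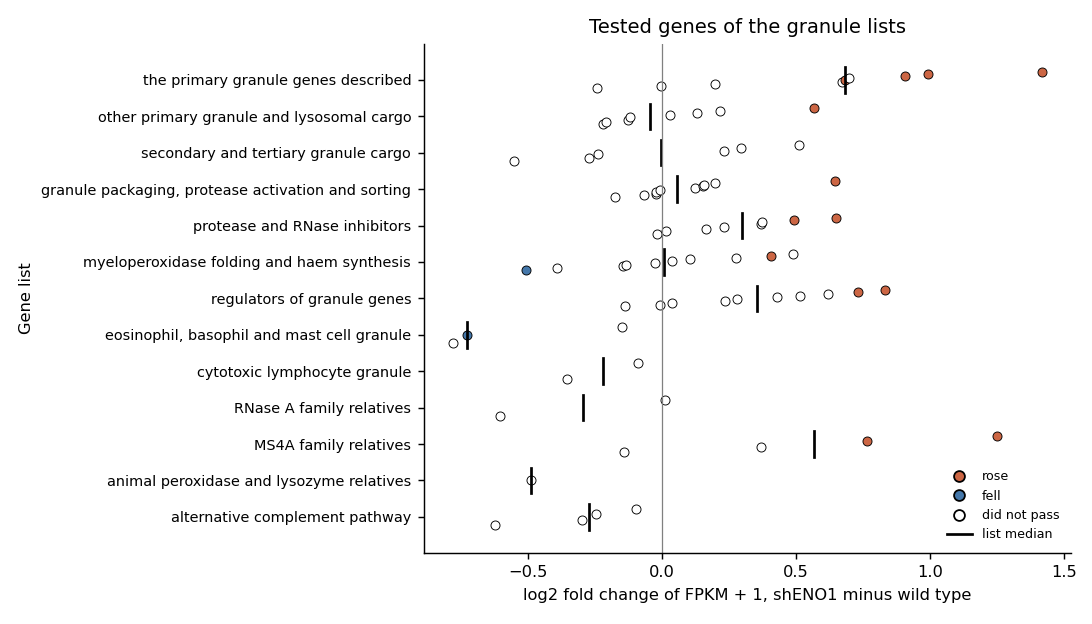
Log2 fold change of FPKM + 1 (shENO1 minus wild type) of the tested genes in each list; orange circles rose, blue circles fell, open circles did not pass, and the bar is the list median. The 9 granule genes have a median of 0.68, the other primary granule and lysosomal genes -0.04 and the secondary and tertiary granule genes -0.003. All lists were chosen with earlier results of these data known, so these contrasts are not tests.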

How the data were processed

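RNA was sequenced from 3 wild-type and 3 shENO1 U937 libraries, made with a TruSeq kit per the labels' protocols. The deposited values are FPKM per gene and library, made by the authors with STAR, Cufflinks and Cuffnorm on hg38 (GRCh38), per the submitters' processing notes; versions, strand setting and the treatment of reads that match several places are not given in the sources used here. The column of gene lengths, per the file headers, was multiplied with FPKM: 100% of values above 0 were whole multiples of 1 step per library (tolerance 0.001), which gave reads per gene, used for depth and for limma-voom only. Reads in genes were 14216739 to 17499636 per library, and chi-square per degree of freedom between replicates was 4.3 to 46.5, so no pair of libraries looked like the same library given more than once.

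Genes averaging 1 FPKM or more entered limma 3.58.1 (R 4.3.3) as log2(FPKM + 1) (empirical Bayes with trend, Benjamini-Hochberg over 12809 genes, threshold 0.05). Adding 1 understates changes of low genes; folds are ratios of mean FPKM. Ratios were tested with exact permutation in scipy 1.17.1. Depth limits precision for MPO alone among the members. The fit was tested on simulated data. SE is the moderated standard error from limma. Alternatives were the pseudocount (0.1, 5), the filter (none, 5 FPKM), scaling, limma-voom, robust priors, a threshold of 0.01, each library left out, a replicate block and, chosen after seeing the data, both replicates numbered 3 left out.

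The members and the gene lists were chosen with earlier results of these data known. The rule for names took the members, ENO1, up to 4 genes with the largest change past the threshold and the 3 most abundant tested genes of each list, and tested neighbours within 100 kb; abundant genes and neighbours that did not pass are named only where a sentence needs them. Named outside the rule, with values seen, were CTSC, RNH1, CEBPE, GFI1, RUNX1, CD33, TYROBP, CD68, CXCR2, BPI, LTF, EPX, PRG2 and genes listed at 0. Promoters come from RefSeq (GRCh38.p14), and 50-base windows and positions were compared with GENCODE release 29. Python 3.11.15 and matplotlib 3.10.9 drew the figures.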

Additional observations from a re-analysis of the deposited data

How the results depend on the processing

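All values of 59 named genes were recomputed under up to 18 alternatives, giving 1051 values, of which 884 kept direction and side of the threshold, 104 lost and 40 gained a call, and 23 changed sign. The signs of PRTN3, ELANE, RNASE2, RNASE3, MS4A3 and LYZ held under all of them; their calls did not. Of the 9 tested granule genes 4 passed, 6 with quantile normalisation, scaling on nuclear genes or limma-voom, 3 with no filter, 2 at an adjusted p threshold of 0.01, 5 without both replicates numbered 3, and 0 to 5 with 1 library left out. Over all genes 1007 rose and 828 fell (1835). With no filter 31500 genes were tested, of which 445 rose and 381 fell (826). The counts were 177 and 126 (303) at 0.01, 1135 and 789 with quantile normalisation, and 1512 and 868 with limma-voom. Scaling on nuclear genes gave 1396 and 501, and moved the median of all genes to 0.08 from -0.02. Without both replicates numbered 3 the counts were 1649 and 2033 (3682). With 1 library left out they were 147 to 914 and 134 to 775 (281 to 1689). Whether libraries with the same replicate number were handled together is not given by the labels. The deviations of same-numbered libraries correlated at -0.08, -0.33 and -0.46, and no library correlated best with its own number. With the replicate block 0 genes rose and 1 fell (1 in all), and 0 granule genes passed. Mitochondrial reads were 3.38% to 5.19% in wild type and 5.72% to 7.42% in shENO1; their part was not tested.

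Signs changed for genes with log2 fold changes of -0.24 to 0.20 in the main fit, none of which passed it. The cause was not tested. Quantile normalisation gave 0.065 for AZU1, -0.12 for CTSG, 0.13 for CFD and 0.20 for NKG7; nuclear scaling gave 0.11 for CFD and 0.025 for NKG7; limma-voom gave 0.031 for CFD. Without both replicates numbered 3 the values were -0.33 for CTSG, 0.19 for CFD, 0.30 for CEBPB and -0.14 for AL355922.1. With 1 library left out they spanned -0.12 to 0.43 for CTSG, -0.13 to 0.13 for CFD, -0.64 to 0.13 for CD63, -0.31 to 0.10 for CEBPB, -0.014 to 0.13 for SPI1, -0.24 to 0.071 for NKG7 and -0.078 to 0.35 for AL355922.1. Depth limits MPO, at 2 to 19 reads a library, for which a filter on low FPKM leaves no test.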
